A study of Mus musculus with 41 samples.

Results

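Lysosomes are the acidic compartments in which cells break down proteins, glycans and lipids delivered by endocytosis, phagocytosis and autophagy. Their hydrolases work at low pH, which the vacuolar H+-ATPase maintains by pumping protons across the lysosomal membrane. Many genes of this system can be switched on together by the transcription factors TFEB and TFE3, which bind a short palindromic DNA motif with the core CACGTG, and phagocytes such as macrophages carry large amounts of lysosomal protein. This account follows 36 genes of lysosomal enzymes, membrane proteins and proton pump subunits in 41 mouse melanomas.

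The members were chosen by gene name. They are 6 proteases and 12 glycosidases and sulfatases, together with 5 proteins that handle lipids and their activators, 6 membrane proteins and 7 proton pump subunits. Of the 36 genes, 35 were measured among the 18194 genes of the array table, and all 35 lay above the filter on low values, which left 14319 genes for testing. Cd63, a tetraspanin of lysosomal membranes, was not analysed here. Each gene was read from the probe set of highest mean, and 25 of the members had more than 1 probe set to compare with it. Over all tumours the mean level of a member ran from 6.70 to 13.34 log2 intensity, and the middle member stood at the 93.4th percentile of the genes measured.

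The tumours were of the strain iBIP, a mouse model in which doxycycline in the drinking water keeps a BRAF transgene switched on and melanomas grow. All groups carried this model, its other alleles are not given in the sources used here, and the labels set the groups apart by the days since the drug was withdrawn. Whole tumours were macrodissected with the skin trimmed away, so every value is an average over tumour cells and the other cells of the tissue. On the drug (day 0) there were 4 tumours, and after withdrawal 7 on day 1, 5 on day 2, 6 on day 3, 4 on day 6, 3 on day 9, 1 on day 16, 1 on day 29 and 10 from day 63 to day 163, the late tumours of this account. Nothing in the labels ties each tumour to a mouse of its own, so p-values measure the spread between these samples, and nothing says whether late tumours had shrunk or regrown. The neural crest factor gene Sox10, a melanoma marker, averaged 10.26 ± 0.34 (SD, n = 4) on day 0, while the pigment gene Dct averaged 6.24 ± 0.64 and Tyr, the tyrosinase gene, did not pass the filter. The number of arrays limits the precision of every difference given here.

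Technical properties of the arrays went along with the groups. Hybridization and labelling spike-ins placed the arrays in 3 sets. Set 1 held days 2, 3 and 6 and 1 tumour of day 1, set 2 held the other 6 tumours of day 1 and 8 late ones, and set 3 held days 0, 9, 16 and 29 and 2 late ones, with 1 day 0 tumour just inside its boundary. No set held day 0 together with any tumour of days 1 to 6, so for those comparisons set and group cannot be told apart within a set. The gap between 3′ and 5′ probe sets of Gapdh, which widens in degraded RNA, averaged 0.45 ± 0.12 log2 units on day 0 (SD, n = 4), 0.51 ± 0.34 on day 1 (n = 7), -0.11 ± 0.10 on day 6 (n = 4) and 2.62 ± 1.38 in the late tumours (n = 10). It was over 2 in 8 late tumours and in replicate 3 of day 9.

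The start sites of these genes carry the palindrome often, and its copies are shown here since the members were chosen as a module. The RefSeq table (GRCm38.p6) gave 31 promoters for 29 of the 36 members, each of 300 bases with 250 before the start site and 50 after it. The motif CACGTG, which reads the same on both strands, was present in 12 of the 31, or 38.7%, against 7.15% of all 32851 promoters in that table. The longer TCACGTGA, which contains it, was present in 6, or 19.4%, against 0.974%. Among 70 promoters of 58 other lysosome genes the shares were 21.4% and 5.71%. The 12 members were Ctsa, Ctsd and Ctsl among the proteases, Gaa, Gla, Glb1, Naglu and Sgsh among the glycosidases and sulfatases, the membrane protein genes Lamp1 and Mcoln1, and the pump genes Atp6v0d1 and Atp6v1a.
The 250 bases before the start site are printed for 4 of them, 5′ to 3′ on the strand of the gene, with every CACGTG or TCACGTGA in capitals. Gla lies at chrX:134601006-134601255 on the minus strand, Ctsd at chr7:142387828-142388077 on the minus strand, Ctsa at chr2:164833523-164833772 on the plus strand and Lamp1 at chr8:13158911-13159160 on the plus strand. Gla, Ctsd and Ctsa are shown since they were called lower in the late tumours than on day 0 in the main fit. Lamp1 is shown since it holds 4 copies of CACGTG and was called in none of the comparisons. The calls of Ctsd and Ctsa did not hold in some other fits, as given below. Ctsa also has a promoter without CACGTG among the 31, which is not printed.
Gla: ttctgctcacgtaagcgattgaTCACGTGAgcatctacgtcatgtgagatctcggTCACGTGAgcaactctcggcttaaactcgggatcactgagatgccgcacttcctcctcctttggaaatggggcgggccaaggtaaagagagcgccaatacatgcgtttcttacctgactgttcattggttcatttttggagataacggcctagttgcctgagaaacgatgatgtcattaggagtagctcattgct
Ctsd: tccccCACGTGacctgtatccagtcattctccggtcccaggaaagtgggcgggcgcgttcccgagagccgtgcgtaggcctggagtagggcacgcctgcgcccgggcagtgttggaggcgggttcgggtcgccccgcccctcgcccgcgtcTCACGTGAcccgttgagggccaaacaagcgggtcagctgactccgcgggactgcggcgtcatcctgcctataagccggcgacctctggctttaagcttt
Ctsa: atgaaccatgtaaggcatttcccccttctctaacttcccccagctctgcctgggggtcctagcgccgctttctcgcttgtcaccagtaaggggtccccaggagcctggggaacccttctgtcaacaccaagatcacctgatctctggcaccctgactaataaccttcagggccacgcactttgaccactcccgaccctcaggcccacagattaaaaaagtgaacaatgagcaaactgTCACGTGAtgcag
Lamp1: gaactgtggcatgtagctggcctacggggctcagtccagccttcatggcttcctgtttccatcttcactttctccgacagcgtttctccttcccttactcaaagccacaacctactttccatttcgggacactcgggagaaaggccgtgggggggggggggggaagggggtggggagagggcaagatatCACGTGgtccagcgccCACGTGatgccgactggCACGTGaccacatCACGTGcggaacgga
A match is a run of letters and says nothing on its own about binding.

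In the first days after withdrawal a small set of lysosomal genes, most of them of hydrolases, was higher than on the drug, led by Ctsz. No member was called lower on days 1, 2, 3 or 6. By limma, with a Benjamini-Hochberg adjusted p under 0.05 over all tested genes, 5 of the 35 members were higher on day 1, 4 on day 2, 7 on day 3 and 6 on day 6. Those are 14.3%, 11.4%, 20% and 17.1% of the members, against 7.57%, 6.74%, 9.74% and 5.74% of all genes called higher on the same days. Of all genes, 6.25%, 8.35%, 11.6% and 6.46% were called lower on those days. At an unadjusted p under 0.05, 2, 3, 1 and 0 members were lower, and a robust limma fit with a trend gave the same numbers. The median member differed from day 0 by 0.17, 0.09, 0.21 and 0.29 log2 units, while the median over all genes differed by 0.00, -0.02, -0.02 and 0.00. Since the 4 comparisons share the same day 0 tumours, the values for each day are given side by side and are not independent of each other. Altogether 9 members were called on at least 1 of these days, and 26 on none of them. The share of all genes called on at least 1 of the days is not given here, so this count has no background.

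**Figure D1:**
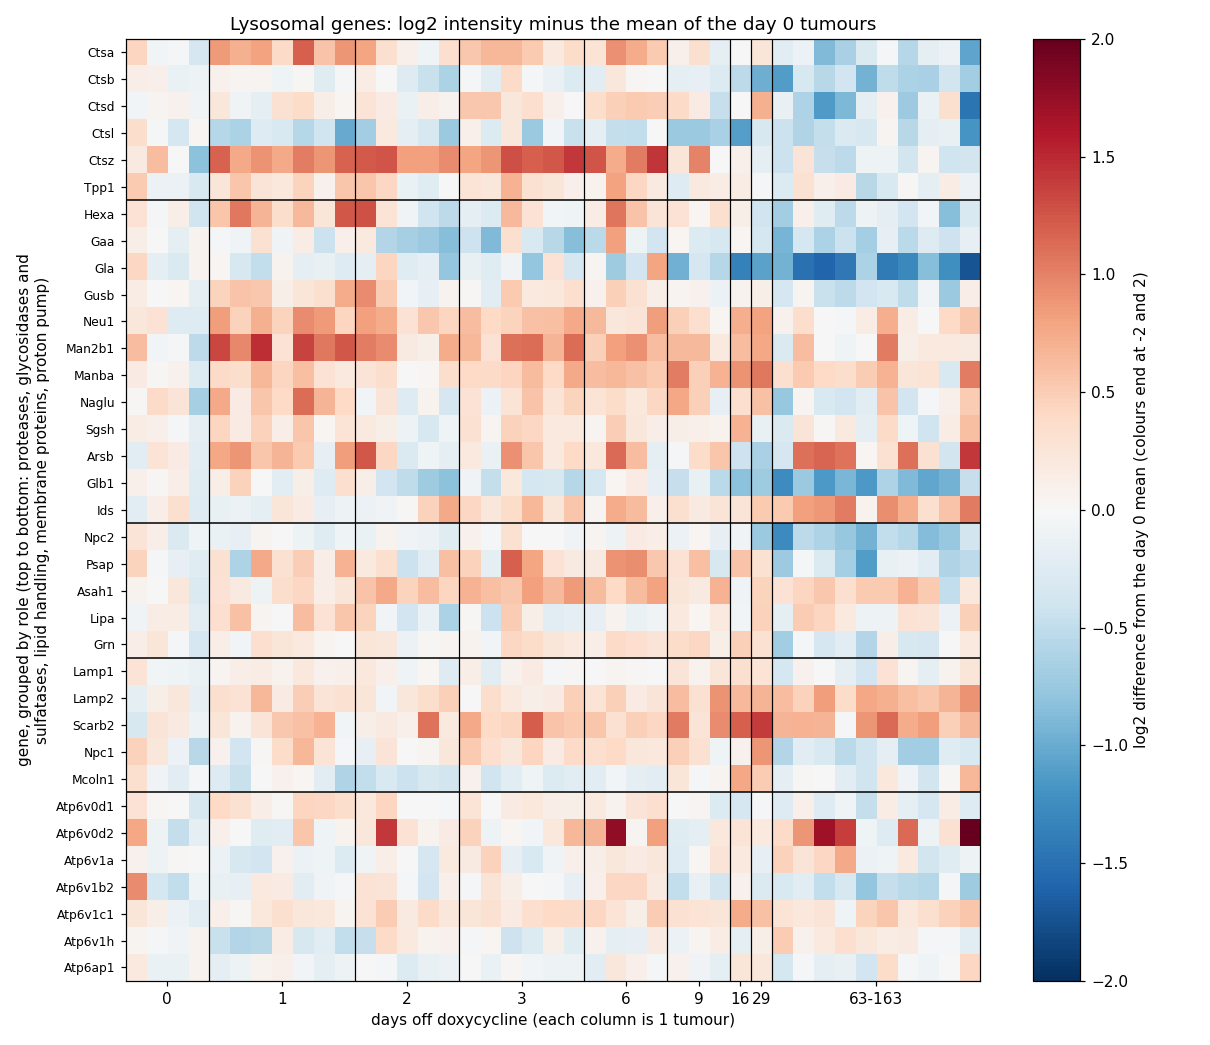
Log2 intensity of the 35 measured genes (rows, grouped by role) in each of the 41 tumours (columns, by days off doxycycline), minus the mean of the 4 day 0 tumours. Red is higher and blue lower, with colours ending at 2 log2 units. Ctsz is red through days 1 to 6, and Gla, Glb1 and Npc2 turn blue in the late tumours at the right.

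Ctsz encodes cathepsin Z, a carboxypeptidase of the lysosome. On day 0 its level was 10.96, 11.39, 10.79 and 9.96. On day 1 it ran from 11.53 to 11.96 with a median of 11.67, and on day 6 it was 12.04, 11.52, 11.82 and 12.20. Each tumour of days 1, 2, 3 and 6 was above the highest day 0 tumour, as were 3.97%, 6.26%, 7.86% and 10.5% of all genes on those days. The differences from day 0 were 0.96 ± 0.19 (SE, adjusted p = 0.00134), 1.01 ± 0.21 (0.00134), 1.14 ± 0.20 (0.000177) and 1.12 ± 0.22 (0.00101), or 1.94-fold to 2.20-fold higher levels, and all 3 probe sets of the gene were higher on each of the 4 days. Ctsa, the gene of cathepsin A, which protects β-galactosidase and neuraminidase in their complex, was called on day 1 (0.77 ± 0.18, adjusted p = 0.00443) and day 6 (0.61 ± 0.20, 0.0430), but its other probe set differed by -0.04 on day 1 and 0.03 on day 6. The major proteases Ctsb and Ctsd, an aspartyl protease, were called on none of the 4 days. Ctsb differed from day 0 by -0.24 to 0.01 and Ctsd by 0.10 to 0.46.

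Among the glycosidase genes, Neu1, which encodes the lysosomal sialidase, was called on all 4 days. Its levels on day 0 were 7.57, 7.64, 7.09 and 7.09, and on day 1 they ran from 7.77 to 8.30 with a median of 8.06, with no overlap. The differences were 0.67 ± 0.15 (SE, adjusted p = 0.00291), 0.56 ± 0.16 (0.0156), 0.57 ± 0.15 (0.00803) and 0.49 ± 0.17 (0.0475). The second probe set of Neu1 did not share the sign of this change on any of the 4 days, with -0.07 on day 1, so the call rests on 1 probe set. Man2b1, the gene of lysosomal α-mannosidase, had the largest difference of any member on day 1, from 9.87 ± 0.47 (SD, n = 4) to 10.97 ± 0.40 (n = 7), a difference of 1.10 ± 0.23 (SE, adjusted p = 0.00173). Replicate 4 of day 1, at 10.16, lay inside the day 0 range, which reached 10.48. On day 3 the Man2b1 difference was 0.83 ± 0.24 (0.0120). The other probe set of Man2b1 differed by 0.37 on day 1 and 0.53 on day 3. Manba, the β-mannosidase gene, was called on day 3 (0.50 ± 0.15, 0.0170) and day 6 (0.60 ± 0.16, 0.0148).

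Of the genes of lipid handling, Asah1, which encodes acid ceramidase, was called on days 2, 3 and 6. Its day 0 levels were 10.63, 10.54, 10.78 and 10.27, its day 6 levels were 11.19, 10.95, 11.18 and 11.36, and the groups were apart. The differences were 0.56 ± 0.15 (SE, adjusted p = 0.0124), 0.69 ± 0.15 (0.00123) and 0.61 ± 0.16 (0.0114). Psap, the precursor of the saposins that help hydrolases reach their lipids, had differences of 0.09 to 0.63 with no call, and Npc2, which carries cholesterol out of the lysosome, of -0.10 to 0.07. Among the membrane proteins, Lamp2, a structural glycoprotein also needed for chaperone-mediated autophagy, was called on day 1 (0.36 ± 0.12, 0.0364) and Scarb2, a sorting receptor of the lysosomal membrane, on day 3 (0.65 ± 0.20, 0.0173). Of the 7 pump genes, Atp6v1c1, which encodes subunit C of the cytosolic sector, was the only one called on these 4 days, on day 2 (0.31 ± 0.11, 0.0411), day 3 (0.31 ± 0.10, 0.0278) and day 6 (0.33 ± 0.11, 0.0455). The median pump gene differed from day 0 by -0.04, 0.05, 0.03 and 0.22.

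These calls depended on individual day 0 tumours. Without replicate 4 of day 0, which had the lowest Ctsz level, 1 member was called on day 2, 2 on day 3 and 1 on day 6. Without replicate 3 of day 0 it was 2 on day 2 and 3 on day 6, and without replicate 4 of day 6 it was 3 on day 6. On day 1, leaving out replicate 4, the array of another spike-in set and the lowest macrophage score of its day, gave 10 calls, of which 8 were higher and 2 lower. For these refits the share of all genes called is not given here, so the counts of members stand without a background. Ctsz kept its call and ran from 0.68 to 1.34 over all tumours left out on the 4 days, its adjusted p reaching 0.0221 on day 1. Lamp2 on day 1, Scarb2 on day 3 and Atp6v1c1 lost theirs, with adjusted p-values of 0.162, 0.0621 and 0.163 to 0.194 without replicate 4 of day 0. Without the same tumour Asah1 had 0.0725 on day 2 and 0.0659 on day 6, Man2b1 0.0852 and Manba 0.0964 on day 3, Manba 0.0761 and Ctsa 0.164 on day 6, and Neu1 0.0795, 0.0532 and 0.170 on days 2, 3 and 6. Ctsa on day 6 lost its call without any of 6 tumours, Neu1 on day 6 without any of 4 and Lamp2 on day 1 without any of 5.

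Macrophage markers moved with these genes. Of 16 marker genes, none of them a member but 3 (Cd68, Ctss and Laptm5) of lysosomal proteins, 10 were higher on day 1, 9 on day 2, 11 on day 3 and 8 on day 6, and 0 were lower by limma, adjusted or not. C1qb, a complement gene of macrophages, went from 9.96 ± 1.03 (SD, n = 4) on day 0 to 12.04 ± 0.45 on day 1 (n = 7), and Cd68 from 8.98 ± 0.93 to 10.31 ± 0.34. The mean over the 16 markers lay between 8.79 and 9.98 on day 0 and between 10.16 and 10.82 on day 1, with no overlap on any of the 4 days. Markers of other cells moved too. Of 8 T and NK cell genes 7 were higher on day 1, 2 on day 2, 5 on day 3 and 1 on day 6, and 0 were lower by limma, adjusted or not. Of 9 melanocyte genes Sox10 was lower on day 2 (-1.05, adjusted p = 0.0159) and day 6 (-1.04, 0.0278), while Mitf was higher on days 3 and 6 and Kit on day 6. On day 3 the endothelial genes Cdh5 and Kdr and the fibroblast gene Pdgfrb were lower and the keratin gene Krt10 was 4.14 higher (0.0228), all named after their values were seen. The mean of 4 keratinocyte genes ran from 6.04 to 10.57 on day 0, from 6.93 to 12.33 on day 1 and from 10.24 to 12.87 on day 6, with overlap, and its part in the lysosomal differences was not tested. In bulk tissue fewer cells of a type and less RNA per cell cannot be told apart.

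With the macrophage mean as a covariate, 0 members were called on day 1, 1 lower on day 2 and 1 higher on each of days 3 and 6, while over all genes 150, 1367, 1900 and 1300 were called. The difference of Ctsz was then -0.07, 0.03, 0.06 and 0.08 on the 4 days, that of Man2b1 0.31 on day 1 and -0.01 on day 3, that of Neu1 0.15 to 0.33, and that of Asah1 0.35, 0.46 and 0.39 on days 2, 3 and 6. The macrophage mean did not overlap between day 0 and any of these 4 days, so this fit cannot fully separate it from the day. With a block for the spike-in set, which links these days to day 0 through 1 day 1 tumour and 2 late ones, 5 members were called on day 1 and 0 on days 2, 3 and 6 by limma, with 6, 7 and 8 at an unadjusted p under 0.05. Of all genes, 7.77%, 0.286%, 0.594% and 0.237% were then called higher on the 4 days, and 3.68%, 0.265%, 0.342% and 0.251% lower. Calls were thus few over all genes on days 2, 3 and 6, and not in the members alone. The 5 of day 1 were not the same genes: Man2b1 and Neu1 kept their call, Ctsz, Ctsa and Lamp2 lost it, and Naglu and Sgsh (higher) and Atp6v1h (lower) gained one. Ctsz then differed by 0.81 (adjusted p = 0.0942), 1.07 (0.26), 1.19 (0.192) and 1.18 (0.223), and Asah1 turned to -0.22, -0.09 and -0.17 on days 2, 3 and 6. The part of macrophage content or of the spike-in set in the rise was not tested beyond these values.

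**Figure D2:**
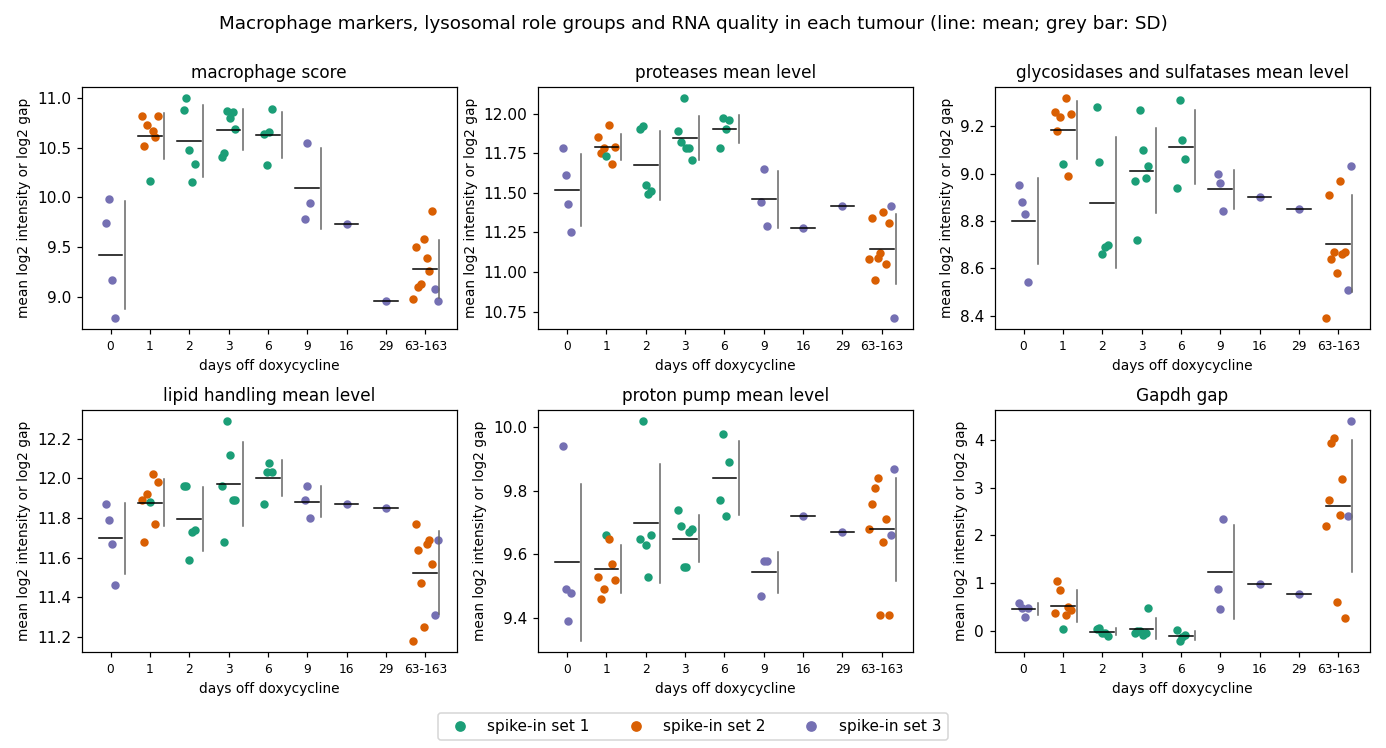
Each panel gives 1 summary per tumour by days off doxycycline: the mean of 16 macrophage markers, the mean level of 4 of the lysosomal role groups, and the Gapdh 3′ to 5′ gap, with the group mean as a line, the SD as a grey bar and colour for the spike-in set. The macrophage mean rises from 9.42 on day 0 to 10.62 on day 1 and stands at 9.28 in the late tumours, where the Gapdh gap averages 2.62.

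On day 9, 2 members were higher and 0 lower by limma, against 2.65% of all genes higher and 1.91% lower; at an unadjusted p under 0.05, 5 were higher and 2 lower. Lamp2 was 12.26, 11.95 and 12.55 against 11.46, 11.77, 11.88 and 11.48 on day 0, a difference of 0.61 ± 0.14 (SE, adjusted p = 0.0123). Manba was 9.38, 8.83 and 9.06 against 8.52, 8.38, 8.44 and 8.09, a difference of 0.73 ± 0.18 (0.0145). In both genes all day 9 tumours lay above all day 0 tumours, as 9.25% of all genes did, and both groups are of spike-in set 3. Fitted within that set alone, 0 members were called (6 at an unadjusted p under 0.05), with adjusted p-values of 0.192 and 0.29. Of all genes only 0.00698% were called higher in that fit and 0% lower. The Ctsz difference on day 9 was 0.41 with no call. Without replicate 3 of day 9, the tumour with a wide Gapdh gap, 0 members were called (8 at an unadjusted p under 0.05), with 0.217 for Lamp2 and 0.113 for Manba, and without replicate 4 of day 0 there were also 0 (5 unadjusted). Without replicate 1 of day 9 Lamp2 alone was called. The single tumours of days 16 and 29 had 12.30 and 12.32 for Lamp2, 13.33 and 13.53 for Scarb2 and 6.48 and 6.76 for Gla, and they entered no test.

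In the late tumours Gla, Glb1, Npc2 and Ctsb were the lower members with the lowest p-values, and Lamp2, Ids and Scarb2 were among the higher ones. Of the 35 members, 6 were higher (17.1%) and 8 lower (22.9%), against 26.3% and 20.1% of all genes, so the share of members called was near the background and is no result about the module as a whole. The median member differed by -0.07 and the median gene by 0.05. What follows therefore concerns single genes.

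Gla, Glb1, Npc2 and Ctsb were the lower members with no overlap between the 2 groups, as were 7.67% of all genes. Gla encodes α-galactosidase A, which is lost in Fabry disease. Its level was 8.24, 7.64, 7.53 and 7.89 on day 0 and ran from 6.10 to 7.19 with a median of 6.47 in the late tumours. The difference of -1.26 ± 0.21 (SE, adjusted p = 1.8e-05) is a 2.39-fold lower value, and both probe sets of Gla were lower. Glb1, the gene of lysosomal β-galactosidase, was 9.08, 9.01, 9.11 and 8.74 on day 0 and ran from 7.72 to 8.53 with a median of 8.05 late, a difference of -0.91 ± 0.16 (1.7e-05). Through day 6 Gla had differed from day 0 by -0.21 to -0.06 and Glb1 by -0.46 to 0.08, with no call.

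Npc2 was 13.57, 13.45, 13.03 and 13.23 on day 0 and ran from 12.04 to 12.95 with a median of 12.63 late, a difference of -0.72 ± 0.11 (SE, adjusted p = 4e-06) that all 4 probe sets shared. Npc1, the membrane protein to which NPC2 hands cholesterol, fell by 0.42 ± 0.15 (0.0181) with overlap. Ctsb, the gene of the abundant cysteine protease cathepsin B, was 13.20, 13.16, 12.92 and 12.96 on day 0 and ran from 11.94 to 12.74 with a median of 12.46 late, a difference of -0.62 ± 0.13 (0.000229) with the same sign in all 5 probe sets. Both genes of the NPC cholesterol route were thus lower than on day 0, Npc2 in every late tumour. Ctsa (-0.41 ± 0.17, 0.0454), Ctsd (-0.49 ± 0.20, 0.0463) and the pump gene Atp6v1b2 (-0.44 ± 0.16, 0.0242) were also called lower, each with overlapping groups. With the Gapdh gap as a covariate Ctsd turned to 0.21 (0.423) and Ctsa was -0.02 (0.95), and the other probe set of Ctsa differed by -0.05. Atp6v1b2 encodes subunit B of the cytosolic sector, and its difference was -0.13 (0.463) without replicate 1 of day 0, which had the highest level, 11.42. Ctsa lost its call on leaving out any of 7 tumours and Ctsd any of 9, with adjusted p-values up to 0.244 and 0.101, and Npc1 without replicate 1 (0.166) or 2 (0.0836) of day 0.

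Lamp2 was the one member that was higher in every late tumour than in every day 0 tumour, as were 10.1% of all genes. Its late levels ran from 12.01 to 12.54 with a median of 12.29 against 11.46 to 11.88 on day 0, a difference of 0.65 ± 0.11 (SE, adjusted p = 1.7e-05), and all 4 probe sets were higher. Its sister glycoprotein gene Lamp1 stayed within 0.19 of day 0 in all 6 comparisons with no call. Scarb2 rose by 0.68 ± 0.18 (0.00254), with 1 late tumour at 12.10 inside the day 0 range, but its other probe set differed by only 0.04. Ids, the gene of the sulfatase that opens heparan and dermatan sulfate breakdown, ran from 10.09 to 11.05 with a median of 10.79 against 9.80, 10.15, 10.34 and 9.76 on day 0, a difference of 0.69 ± 0.16 (0.000674) whose sign its 4 probe sets did not all share. Manba (0.40 ± 0.14, 0.0167), Asah1 (0.35 ± 0.13, 0.0315) and Atp6v1c1 (0.32 ± 0.09, 0.00527) were called as well, and without replicate 4 of day 0 they had adjusted p-values of 0.0984, 0.168 and 0.0518. Asah1 also lost its call without replicate 2 of day 0 (0.0652) or late replicate 7 (0.0552).

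RNA quality and spike-in set moved with this comparison too. With the Gapdh gap as a covariate, 7 of the 14 member calls were kept, 6 were lost and 1 turned in sign. That left 3 members higher and 4 lower, beside 11% and 13.2% of all genes. The 2 late tumours with a Gapdh gap under 2, replicates 5 and 8, against day 0 gave -1.09 for Glb1 (adjusted p = 0.000876), -0.91 for Npc2 (1.74e-05), -0.80 for Ctsb (0.00171), 0.65 for Lamp2 (0.00255) and 0.86 for Scarb2 (0.0146), sizes at least equal to those with all 10. Gla was then -0.74 (0.0832) and Ids 0.20 (0.53), and these 2 tumours had the highest Gla levels of the late group, 7.19 and 6.98, and its lowest Ids levels, 10.09 and 10.34. Without the tumours of wide gap 4 members were called higher and 6 lower, beside 13.1% and 15.2% of all genes, which is near the background. Within spike-in set 3, with 2 other late tumours against the 4 of day 0, 2 members were called higher and 3 lower, beside 11% and 5.31% of all genes. The count is near that background and is no result about the module. The 5 were Gla (-1.48, 0.012), Glb1 (-0.70, 0.0401), Ctsb (-0.53, 0.0422), Ids (0.80, 0.0342) and Lamp2 (0.78, 0.0347). Npc2 was -0.56 there (0.0715) and Asah1 turned to -0.14. The 2 late tumours of that fit, replicates 9 and 10, had Gapdh gaps of 2.41 and 4.41. Replicates 5 and 8, of narrow gap, were in spike-in set 2, which held no day 0 tumour. Each subset thus kept the other technical difference, and neither sets aside RNA quality and spike-in set at once. The macrophage mean differed little between the groups, 9.28 ± 0.29 (SD, n = 10) late and 9.42 ± 0.54 on day 0 (n = 4), and with it as a covariate Gla was -1.19, Glb1 -0.88, Npc2 -0.70, Ctsb -0.58 and Lamp2 0.63. Melanocyte genes (4 of 9), endothelial genes (2 of 5), fibroblast genes (3 of 7) and both measured Schwann cell genes were higher late than on day 0, and 1 of 16 macrophage genes was higher and 3 lower. The part of these cell types in the lysosomal differences was not tested.

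**Figure D3:**
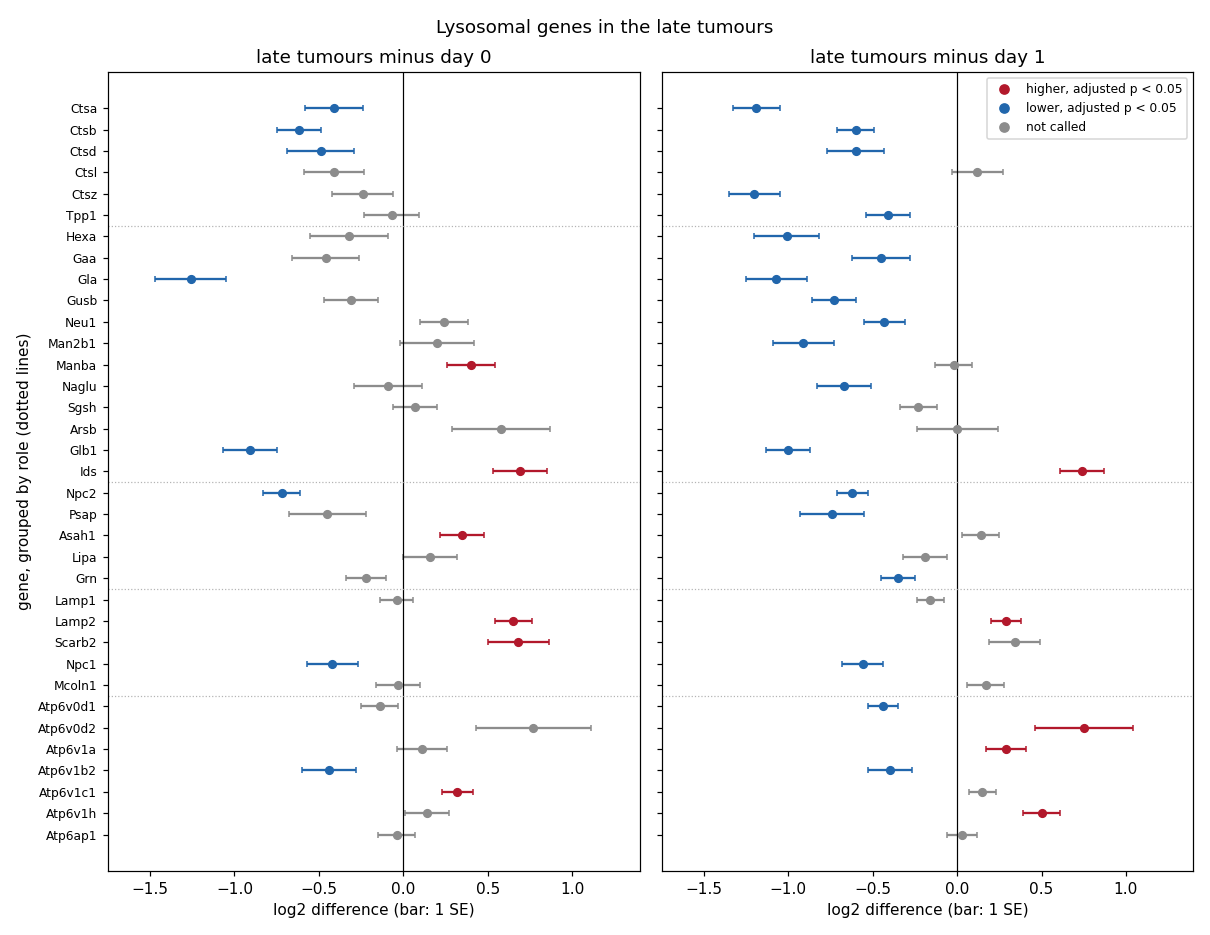
Log2 difference of each lysosomal gene between the late tumours and day 0 (left) and between the late tumours and day 1 (right), with 1 SE as a bar, red for called higher, blue for called lower and grey for no call. Gla lies at -1.26 and Glb1 at -0.91 on the left, and 19 of the 35 genes are blue on the right.

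Against day 1, rather than day 0, most of the module was lower in the late tumours. Of the 35 members 19 were lower (54.3%) and 5 higher (14.3%), against 22.8% and 28.9% of all genes, and the median member differed by -0.40 while the median gene differed by 0.06. Lower were 5 of 6 proteases, 8 of 12 glycosidases and sulfatases, and, of the 5 genes of lipid handling, Npc2, Psap and Grn, none of which encodes an enzyme. Of the membrane proteins only Npc1 was lower and only Lamp2 higher, though the 4 probe sets of Lamp2 ran from -0.01 to 0.52, and among the 7 pump genes 2 were lower and 3 higher. Of the 19, 8 were those also lower against day 0, and the other 11 were not called against it.

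The largest falls were in the cathepsin genes Ctsz and Ctsa, both of which had been called higher on day 1. Ctsz ran from 10.25 to 11.04 with a median of 10.41 in the late tumours against 11.53 to 11.96 on day 1, a difference of -1.20 ± 0.15 (SE, adjusted p = 2.06e-07). Ctsa ran from 9.30 to 10.32 against 10.75 to 11.56, a difference of -1.19 ± 0.14 (8.05e-08), but its other probe set differed by only -0.01. Hexa, which encodes a lysosomal glycosidase subunit, went from 11.29 to 12.29 on day 1 to between 10.19 and 11.15, a difference of -1.01 ± 0.19 (5.71e-05). In these 3 genes, and in Ctsb, Gla, Glb1 and Npc2, every late tumour was below every day 1 tumour, as were 3.72% of all genes. Man2b1 (-0.91 ± 0.18, 9.91e-05), Psap (-0.74 ± 0.19, 0.002), Gusb, the β-glucuronidase gene (-0.73 ± 0.13, 2.7e-05), Naglu, of heparan sulfate breakdown (-0.67 ± 0.16, 0.00112) and Neu1 (-0.43 ± 0.12, 0.00252) were lower with overlap. The other probe set differed by only -0.01 in Neu1 and by -0.32 in Man2b1, but by -2.16 in Psap and -1.38 in Gusb. Against day 0, Ctsz, Hexa, Man2b1, Psap, Gusb, Naglu and Neu1 had no call. Smaller falls were called in Tpp1, Gaa, Grn, Ctsd, Npc1, Atp6v0d1 and Atp6v1b2, from -0.60 to -0.35. The other probe set of Tpp1 differed by only -0.07, while those of Gaa and Atp6v1b2 differed by -0.82 and -0.56.

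The proton pump did not move as a unit. Atp6v0d1 and Atp6v0d2 encode alternative forms of subunit d, of which d2 is known from osteoclasts and other special cells. Atp6v0d1 ran from 10.07 to 10.48 on day 1 and from 9.57 to 10.20 late, a difference of -0.44 ± 0.09 (SE, adjusted p = 0.00017). Atp6v0d2 had 7.11, 6.23, 5.85 and 6.14 on day 0, 6.09 to 6.89 on day 1 and 6.08 to 8.76 late, a difference of 0.75 ± 0.29 from day 1 (0.0294) and of 0.77 ± 0.34 from day 0 (0.0635). The late SD of Atp6v0d2, 0.88, was the widest among the members the text names, and its late levels were 6.24 and 6.23 in the 2 tumours with a Gapdh gap under 2 and reached 8.02 and 8.76 in replicates 3 and 10. Without the 8 tumours of wide gap its difference from day 1 was -0.12 (0.826). Atp6v1h (0.50 ± 0.11, 0.000276) and Atp6v1a (0.29 ± 0.12, 0.0437), 2 subunits of the cytosolic sector, were higher than on day 1, but in each the other probe set had the opposite sign, and Atp6v1a was -0.07 without the tumours of wide gap. Atp6v0d2 lost its call without replicate 10 of the late group (0.56, 0.0657) or any of 4 others, Atp6v1a without any of 10 tumours, and Gaa without replicate 3 of day 1 (0.0592). The accessory subunit gene Atp6ap1 stayed between -0.11 and 0.03 in all 7 comparisons.

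This comparison could be made inside a spike-in set. Within set 2, with 8 late tumours and 6 of day 1, 20 members were lower and 4 higher, beside 23.7% and 25.4% of all genes, and with the set as a block 21 and 5, beside 24.6% and 27.2%. Ctsz was -1.19 (adjusted p = 1.4e-05), Ctsa -1.21 (2.05e-05), Glb1 -1.10 (2.12e-05) and Npc2 -0.65 (0.000416) within the set. With only the 2 late tumours of narrow Gapdh gap 17 members were lower and 0 higher by limma (4 higher at an unadjusted p under 0.05), beside 14.6% and 11.5% of all genes. Macrophage genes moved with this comparison: 14 of 16 were lower late than on day 1 and 0 higher by limma, adjusted or not, the ranges of the marker mean did not overlap, and all 8 T and NK cell genes were lower. With the macrophage mean as a covariate 0 members were called (4 at an unadjusted p under 0.05), with -0.05 for Ctsz, -0.61 for Ctsa and -0.66 for Glb1, while over all genes the count of calls went from 7403 to 34.

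**Figure D4:**
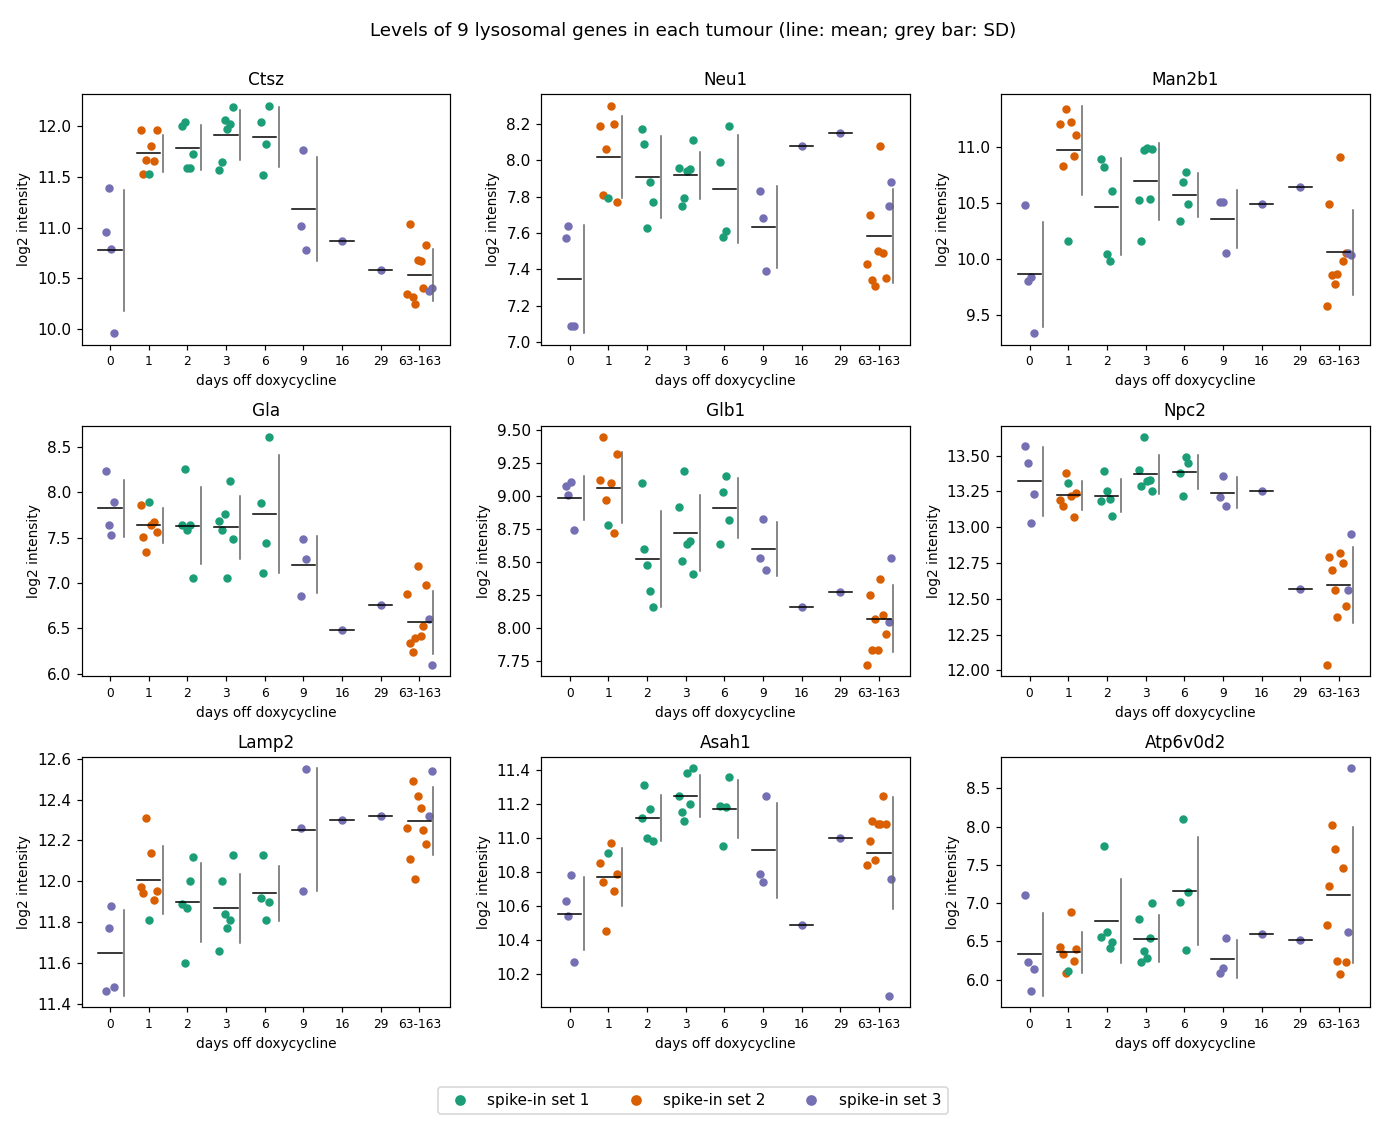
Log2 intensity of 9 lysosomal genes in each tumour by days off doxycycline, with the group mean as a line, the SD as a grey bar and colour for the spike-in set. Ctsz and Man2b1 are high on days 1 to 6, Gla, Glb1 and Npc2 are low in the late tumours (6.57, 8.07 and 12.60 on average), Lamp2 is high there (12.29), and Atp6v0d2 spreads from 6.08 to 8.76.

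Genes of the same pathway outside the module gave the surrounding picture, from a list of 72 of which 66 were tested. On days 1, 2, 3 and 6, 13, 11, 22 and 14 of them were higher (19.7%, 16.7%, 33.3% and 21.2%, beside 7.57%, 6.74%, 9.74% and 5.74% of all genes) and 2, 4, 4 and 3 lower. On day 9, 4 were higher and 0 lower by limma (2 lower at an unadjusted p under 0.05). Late against day 0, 21 were higher and 8 lower (31.8% and 12.1%, beside 26.3% and 20.1% of all genes), and late against day 1, 11 and 22 (16.7% and 33.3%, beside 28.9% and 22.8%). Among 20 other hydrolases, Ctsh, an aminopeptidase, and Ctso rose early and stayed up: Ctsh went from 9.46 ± 0.31 (SD, n = 4) to 11.09 ± 0.42 on day 1 (n = 7) and 10.86 ± 0.52 late (n = 10), with 1.63 ± 0.25 (SE, adjusted p = 6.13e-05) on day 1 and a late call at 1.18e-05. Lgmn, the asparaginyl endopeptidase legumain, was up on days 1 to 6 (0.84 to 1.41) and back at -0.08 late, and Ctsc fell to -0.89 ± 0.23 (0.00233) late. Ctsk, the collagen-cutting cathepsin of osteoclasts, was higher late (0.74 ± 0.28, 0.0268), and Galns, a sulfatase, was lower (-0.74 ± 0.16, 0.000381).

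Enzyme delivery genes and regulators also differed. Igf2r, the large mannose 6-phosphate receptor that carries new hydrolases to the lysosome, was lower than day 0 on days 1, 2, 3 and 6 and late, by -1.09 ± 0.23 (SE, adjusted p = 0.00183) on day 1 and -1.43 ± 0.22 (3.02e-06) late, when all 10 tumours, at 7.65 to 9.02, lay below the day 0 range of 9.29 to 10.16. Gnptg, a subunit of the enzyme that makes the mannose 6-phosphate tag, was higher on the same days, by 0.42 ± 0.12 (0.0175) on day 1 and 0.63 ± 0.11 (3.73e-05) late. Tfe3 was lower on days 2, 3 and 6 and late (-0.47 ± 0.12, 0.00196), Tfeb was called on none of these days (-0.14 ± 0.12 late), and both were lower late than on day 1. Mitf, their relative that controls melanocyte genes, was higher on days 3 and 6 and late (1.22 ± 0.28, 0.000525), and Tfec, a family member found in macrophages, was higher on days 2, 3 and 6 (1.52 ± 0.31 on day 2, 0.00128) and -0.33 late with no call. Flcn and Fnip1, which act together in nutrient signalling at the lysosome, were higher late (0.55 ± 0.14, 0.00143, and 0.90 ± 0.15, 1.19e-05), as was the Ragulator gene Lamtor3 (0.49 ± 0.09, 2.43e-05), and Rptor, of mTORC1, was lower (-0.44 ± 0.14, 0.012).

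Among 11 autophagy genes, Wipi1, which acts in phagophore formation, was lower late than on day 0 by 1.05 ± 0.13 (SE, adjusted p = 3.14e-07), from 10.34 ± 0.06 (SD, n = 4) to 9.30 ± 0.26 (n = 10), and Gabarap by 0.70 ± 0.27 (0.0326), while Becn1 (0.55 ± 0.14, 0.00134) and Gabarapl1 (0.69 ± 0.18, 0.00166) were higher. Wipi1 was already lower on day 2 (-0.64, 0.00492), day 3 (-0.62, 0.00326) and day 6 (-0.48, 0.0475). Becn1 was already higher on day 1 (0.46, 0.028) and day 3 (0.43, 0.037). Of the other pump subunits, Atp6ap2 (0.46 ± 0.09, 0.000161) and Atp6v0e2 (0.71 ± 0.19, 0.00273) were higher late and Tcirg1, the a3 subunit of the osteoclast pump, was lower (-0.62 ± 0.18, 0.00501), and Atp6v0a1 had -0.39 with no call. Markers shared by osteoclasts and lipid-laden macrophages did not move as a group. Late against day 0, Gpnmb was higher (1.20 ± 0.47, 0.0366), and Acp5 (0.81 ± 0.43) and Trem2 (-0.52 ± 0.24) had no call. Trem2 was lower late than on day 1 (-1.16 ± 0.20, 1.69e-05). On day 3 Acp5 (1.45 ± 0.47, 0.025) and Trem2 (1.16 ± 0.26, 0.00213) were higher than on day 0, and Gpnmb had 0.18 with no call. Of the 12 members with CACGTG in a promoter 4 were lower (33.3%) and 0 higher late than day 0 by limma, adjusted or not, and of the 16 measured members with a promoter and no CACGTG 1 was lower (6.25%) and 4 higher (25%), beside 20.1% of all genes lower and 26.3% higher. Against day 1 the counts were 7 lower and 1 higher with the motif and 9 lower and 2 higher without it, beside 22.8% and 28.9% of all genes. The 4 with the motif that were lower than on day 0 were Gla, Glb1, Ctsa and Ctsd. Ctsa and Ctsd lost their call with the Gapdh gap as a covariate, and Ctsa also has a promoter without CACGTG. The 7 members without a promoter entry are in neither class. Among them Ctsb, Npc1 and Atp6v1b2 were called lower and Asah1 and Atp6v1c1 higher late than on day 0. These are counts of few genes, and the difference between members with and without the motif was not tested.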

How the data were processed

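RNA of 41 macrodissected tumours was measured on Affymetrix mouse arrays. The authors deposited 1 intensity per probe set and array on a linear scale. RMA and MAS5 are named in the submitters' processing notes, with no version and no word on which made the table, and a genome build is not given in the sources used here. Array medians of the deposited intensity ran from 51.8 to 57.4. Values were turned into log2(intensity + 16) and quantile normalised. Of 45101 probe sets, 34958 named 1 gene, 932 several and 9211 none. The probe set of highest mean stood for a gene, and genes were tested if they exceeded the array's 40th percentile in 3 or more tumours. Fold changes are on the log2(intensity + 16) scale, which understates those of weak genes.

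One limma fit (version 3.58.1, R 4.3.3) used 1 mean for each group, drew the spread from all 41 tumours and gave 7 comparisons: days 1, 2, 3, 6, 9 and the late tumours against day 0, and the late tumours against day 1. Differences carry their SE, and adjusted p-values are limma's with Benjamini-Hochberg adjustment over the 14319 genes. A gene was called at an adjusted p under 0.05. The late tumours were from days 63 (3), 77 (2), 90, 121 (2), 136 and 163. Spike-in sets came from the bioD (limit 12) and dap (limit 9.4) log2 levels. A marker mean is the mean log2 intensity of its list. The members, lists, tests and limits were chosen with earlier results of these data known. Full values were given for up to 2 members of each role group with the lowest p in each direction late against day 0, for the Atp6v0d pair and for members called on early days, the last chosen after their values were seen. The other genes named were fixed in the list or had the lowest p in it; some genes of that list are not reported here, and Atp6v1b1 did not pass the filter. Other pseudocounts, filters, scalings, probe set rules, covariates, blocks and subsets were tried, and the pipeline was tested on simulated data. Promoters were searched in Python 3.11.15 and figures drawn with matplotlib 3.10.9.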

Additional observations from a re-analysis of the deposited data

Results flagged for a closer look

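In 210 groups of 4 to 10 tumours, one for each member and day, 8 held a tumour far from the others of its day by Dixon's test, and chance alone marks about 5% of groups. Late replicate 10 had the lowest Ctsl level of its group, 12.03 against 12.62 to 13.27 in the others, and it also had the widest Gapdh gap, 4.41. Late replicate 9 had 10.07 for Asah1 against 10.76 to 11.25. Day 2 held 3 such values: replicate 1 had 8.94 for Gaa against 7.89 to 8.16, replicate 4 had 13.22 for Scarb2 against 12.24 to 12.34, and replicate 2 had 7.74 for Atp6v0d2 against 6.41 to 6.62. Day 1 held 2: replicate 6 had 8.31 for Arsb against 8.99 to 9.35, and replicate 5 had 6.89 for Atp6v0d2 against 6.09 to 6.43. Day 3 replicate 3 had 10.48 for Tpp1 against 9.89 to 10.09. No tumour was apart in more than 1 member.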

How the results depend on the processing

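No paired analysis was possible because the labels number no replicates, and the numbers used here come from accession order. Pseudocounts of 1 and 64, no filter or one at the 60th percentile and a robust fit with a trend left every count of members within 1.5 times its value. For day 1 against day 0 the count went from 5 to 10 with arrays centred on their medians or with no further normalization, and to 8 with the mean of the probe sets or only the groups compared. In these 4 settings, 8.81%, 8.74%, 7.44% and 6.54% of all genes were higher, and 4.23%, 5.1%, 7.7% and 5.54% lower. With only the groups compared the member count was 2 on day 2, 0 on day 9 and 8 late against day 0. Of all genes, 4.29%, 0% and 21.1% were then higher, and 6.67%, 0% and 16.5% lower. With a block for the spike-in set the member count was 0 on days 2, 3 and 6 and 8 late against day 0, and within set 3 it was 0 on day 9 and 5 late. Late against day 0 with the block, 19.3% of all genes were higher and 10.8% lower, and the other shares are given above. The Gapdh gap as a covariate gave 7 late against day 0, beside 11% of all genes higher and 13.2% lower. The macrophage mean as a covariate gave 0 on day 1, 1 on days 2, 3 and 6, 5 on day 9 and 0 late against day 1. Of all genes, 5.65% were then higher and 3.88% lower on day 9, and 0.147% and 0.0908% late against day 1. Leaving out tumours with a gap over 2, chosen after seeing the data, gave 1 on day 9, beside 0.112% of all genes higher and 0.0559% lower. Leaving out each tumour in turn gave 4 to 10 on day 1, 1 to 5 on day 2, 2 to 8 on day 3, 1 to 8 on day 6, 0 to 3 on day 9, 10 to 17 late against day 0 and 21 to 26 late against day 1. The shares of all genes called on leaving out a tumour are not given here. Signs turned in few genes. The mean of the probe sets gave -0.35 for Atp6v1a and -0.24 for Atp6v1h late against day 0. The spike-in block gave -0.22, -0.09 and -0.17 for Asah1 on days 2, 3 and 6 and -0.14 late, as did set 3 alone. The Gapdh covariate gave 0.21 and 0.08 for Ctsd late against days 0 and 1 and -0.33 for Atp6v0d2 against day 1, where leaving out gaps over 2 gave -0.12 for Atp6v0d2 and -0.07 for Atp6v1a. The macrophage covariate gave -0.07 for Ctsz on day 1 and -0.01 for Man2b1 on day 3. The cause of these changes was not tested.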
